A study of Mus musculus with 4 samples.

Results

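The 37 genes described here are markers of cells that a myeloid culture is not meant to hold. They comprise 11 genes of connective tissue stroma, 7 of endothelium, 9 of liver and 10 of striated muscle, out of 21779 protein-coding genes with a position in the gene table. They were chosen by name and tissue, with earlier results of these data known, and the rule that defines them uses no peak value. Peaks were assigned to a gene when they overlapped its annotated span plus 1 kb on either side by at least 1 bp.

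The data were peak lists of histone H3 acetylated at lysine 9 (H3K9ac) from chromatin immunoprecipitation and sequencing of mouse myeloid-derived suppressor cells (MDSC), which had been grown from bone marrow and brought into senescence in vitro. The treated library came from cells in the CM condition plus romidepsin, an inhibitor of histone deacetylases, and the untreated library from cells in the CM condition alone. The labels expand CM nowhere and give no dose or time. Each condition had 1 immunoprecipitated library, so no difference between them has a replicate check or a test, and the 2 input libraries were not analysed here. The romidepsin list held 103336 peaks and the CM list 16419, and the read depth behind either is unknown.

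H3K9ac is written by histone acetyltransferases at promoters and enhancers in use and is removed by histone deacetylases. Genes reserved for another cell type usually lie in chromatin with little acetylation, held there by deacetylase complexes or by other repressive marks. Some genes of stroma and endothelium are also used by myeloid cells, among them the adhesion genes Pecam1 and Fn1 and the receptor gene Flt1, whereas the genes of liver secretion and of the sarcomere are not known for a role in blood.

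Stromal and endothelial genes carried most of the peaks found at these loci, and liver and muscle genes few. With romidepsin, 16 of the 37 genes (43.2%) had a peak, against 68.7% of all protein-coding genes, and in CM 6 (16.2%) had one, against 53.8% of all genes. A peak was present with romidepsin at 8 of 11 stromal, 5 of 7 endothelial, 2 of 9 liver and 1 of 10 muscle genes. In CM the counts were 2 of 11 stromal, 4 of 7 endothelial, 0 of 9 liver and 0 of 10 muscle genes. A peak with romidepsin and none in CM was seen at 10 of the 37 genes (27.0%), against 14.8% of all genes. Only a gene without a CM peak can be in this class, and more of the 37 genes than of all genes lacked one. These shares therefore do not show that a gene without a CM peak gained one more often here than elsewhere. In both lists 21 genes had no peak, and no gene had a peak in CM alone. Of all 21779 genes, 6824 had no romidepsin peak. A romidepsin peak was present at 14955 of all genes, a CM peak at 11727, and a romidepsin peak without a CM peak at 3230. A CM peak alone was thus rare among all genes too. With equal numbers of strongest peaks, taken by −log10 q, the romidepsin count was 10 of 37 genes (27.0%), against 54.8% of all genes. By tissue, the romidepsin shares were 72.7% of stromal and 71.4% of endothelial genes, close to the 68.7% of all genes. Those of liver (22.2%) and muscle (10.0%) were below it. Median length was 38.7 kb for stromal and 90.0 kb for endothelial genes. Of all genes of 30 to 100 kb, 82.4% had a romidepsin peak. With equal numbers of peaks, 3 of 11 stromal genes had a romidepsin peak, below the 54.8% of all genes. The endothelial, liver and muscle counts were then 4 of 7, 2 of 9 and 1 of 10. In CM the endothelial share of 57.1% was close to the 53.8% of all genes, and the stromal share of 18.2% was below it. With equal numbers of peaks, a romidepsin peak and no CM peak were seen at 4 of the 37 genes (10.8%), against 3.94% of all genes. The same limit applies to this pair of shares.

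The culture's own identity genes were counted for comparison, a list also chosen with earlier results of these data known. Of 14 genes that define myeloid cells, such as Spi1, Csf1r and Lyz2, 14 had a peak with romidepsin and 13 in CM. The gene without a CM peak was S100a9, which had 1 romidepsin peak of 671 bp (fold 2.51) over 13.2% of its window. The windows of the 14 genes were covered by peaks over 51.7% of their length with romidepsin and over 13.2% in CM. The 37 genes were covered over 4.92% with romidepsin and 0.319% in CM, against 14% and 2.17% for all protein-coding genes. These shares are pooled, so long genes weigh most, among them Ryr2 (554 kb) and Ttn (279 kb) without a peak. Median length was 38.7 kb for the 37 genes, 9.74 kb for the myeloid genes and 17.2 kb for all. Among all genes, median romidepsin coverage was 3.64% below 10 kb, 22.0% at 10 to 30 kb and 2.76% at 100 kb or more. Because the material was bulk chromatin, more acetylated cells and more acetylation per cell cannot be told apart. Whether the stromal and endothelial peaks came from the myeloid cells or from other cells in the culture was not tested. Endothelial Tek and Emcn and stromal Dcn, Lum and Fbn1 had no peak in either list.

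**Figure D1:**
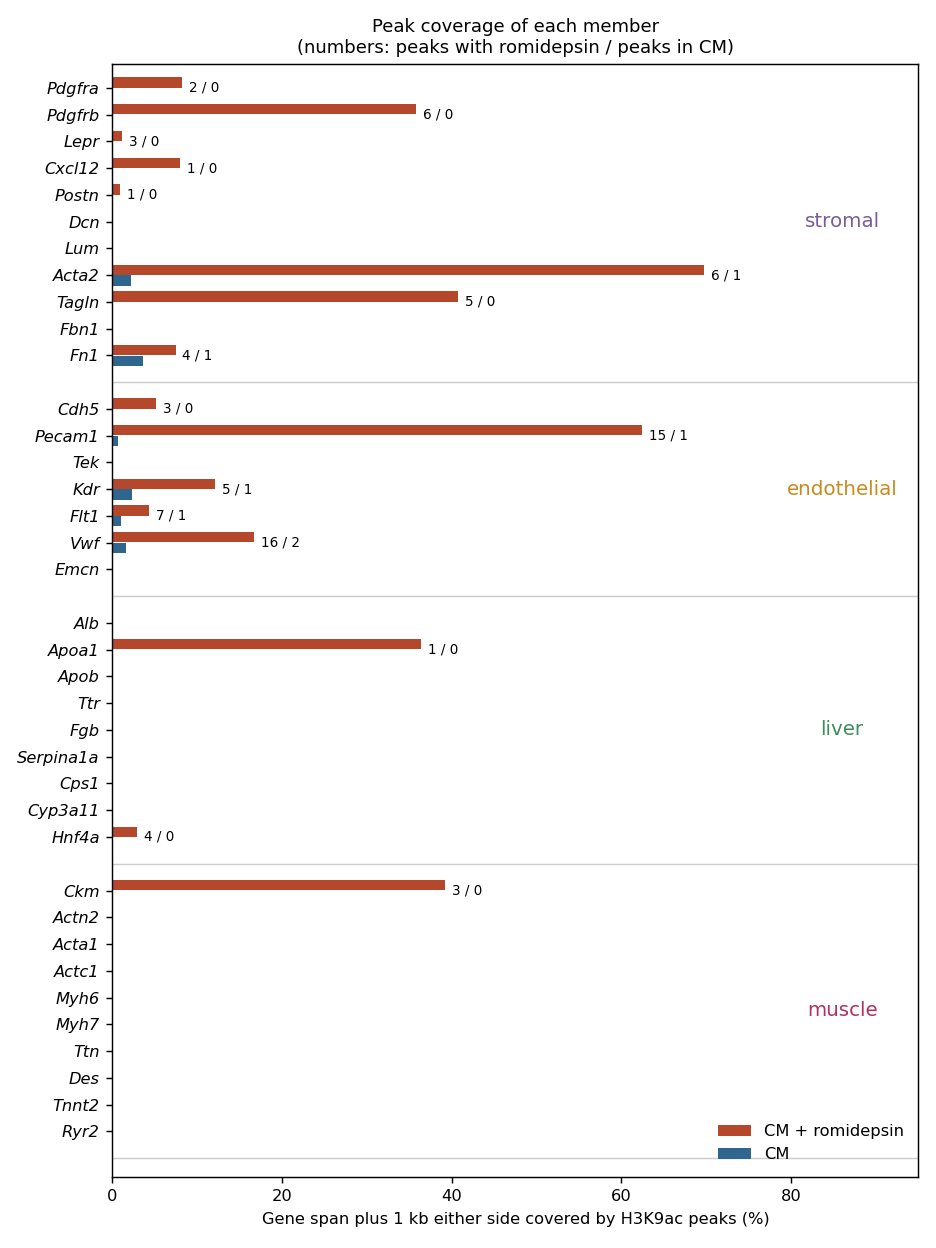
Percentage of each gene's span plus 1 kb that was covered by H3K9ac peaks with romidepsin (upper, red bars) and in CM (lower, blue bars), with 1 library per condition, for the 37 genes sorted by tissue. Numbers give the peaks with romidepsin and in CM. Acta2 (69.7%) and Pecam1 (62.4%) had the highest coverage with romidepsin, and 21 genes had none.

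Where the start site was known, few of these genes had a peak over it. The RefSeq promoter table for GRCm38.p6, the assembly called mm10, held a promoter window of 300 bp (250 bases before to 50 after the start) for 27 of the 37 genes, with Dcn, Lum, Fn1, Tagln, Pdgfrb, Pecam1, Vwf, Cdh5, Ttr and Cps1 not matched. A romidepsin peak lay over a promoter at 6 of the 27 genes (Acta2, Cxcl12, Lepr, Postn, Flt1 and Kdr), against 60.4% of all genes in that table. A CM peak did so at Flt1 and Kdr, against 47.9% of all genes. These shares are not matched for the content of CG dinucleotides, which is described below. No liver or muscle promoter in the table was under a peak. The promoters of Flt1 and Kdr are shown because no other promoter of these genes in the table was under a peak in both lists, those of Acta2 and Cxcl12 because they had the longest stromal peaks over a start, and those of Alb and Ckm as liver and muscle promoters without a peak, a choice made after their values were seen. Each reads 5′ to 3′ on the strand of the gene, and capitals mark the CG dinucleotides, the sites of DNA methylation that cluster in CpG islands. Their positions are chr5:147725962-147726261 (minus strand), chr5:75978406-75978705 (minus), chr19:34255324-34255623 (minus), chr6:117168285-117168584 (plus), chr5:90460620-90460919 (plus) and chr7:19410844-19411143 (plus).
Flt1: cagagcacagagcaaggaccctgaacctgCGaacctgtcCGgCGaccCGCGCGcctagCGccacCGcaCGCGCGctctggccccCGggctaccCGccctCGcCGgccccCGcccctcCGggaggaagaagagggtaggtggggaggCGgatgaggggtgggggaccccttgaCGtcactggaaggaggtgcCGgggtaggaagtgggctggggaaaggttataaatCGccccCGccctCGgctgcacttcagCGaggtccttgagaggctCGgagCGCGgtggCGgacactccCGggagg
Kdr: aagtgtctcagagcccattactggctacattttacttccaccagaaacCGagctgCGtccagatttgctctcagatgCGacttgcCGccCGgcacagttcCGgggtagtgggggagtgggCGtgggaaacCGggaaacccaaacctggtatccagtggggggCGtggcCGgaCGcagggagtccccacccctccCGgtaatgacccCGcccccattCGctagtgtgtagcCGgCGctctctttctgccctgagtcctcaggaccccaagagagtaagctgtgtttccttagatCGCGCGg
Acta2: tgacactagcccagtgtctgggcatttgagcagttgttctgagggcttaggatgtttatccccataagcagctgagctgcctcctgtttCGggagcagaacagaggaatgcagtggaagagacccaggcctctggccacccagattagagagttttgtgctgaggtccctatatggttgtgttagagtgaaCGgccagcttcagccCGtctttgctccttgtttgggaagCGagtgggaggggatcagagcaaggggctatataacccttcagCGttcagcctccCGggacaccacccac
Cxcl12: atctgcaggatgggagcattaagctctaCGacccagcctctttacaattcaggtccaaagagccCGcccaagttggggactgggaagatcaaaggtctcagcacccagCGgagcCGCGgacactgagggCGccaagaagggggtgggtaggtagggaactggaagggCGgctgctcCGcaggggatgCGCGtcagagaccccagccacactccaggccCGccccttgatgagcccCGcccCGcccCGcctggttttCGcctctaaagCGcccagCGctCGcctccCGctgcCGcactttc
Alb: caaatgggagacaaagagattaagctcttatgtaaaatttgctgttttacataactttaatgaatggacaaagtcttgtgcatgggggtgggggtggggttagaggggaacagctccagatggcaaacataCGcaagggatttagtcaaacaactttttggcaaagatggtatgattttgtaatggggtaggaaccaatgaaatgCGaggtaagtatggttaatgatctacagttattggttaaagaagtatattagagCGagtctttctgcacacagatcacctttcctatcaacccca
Ckm: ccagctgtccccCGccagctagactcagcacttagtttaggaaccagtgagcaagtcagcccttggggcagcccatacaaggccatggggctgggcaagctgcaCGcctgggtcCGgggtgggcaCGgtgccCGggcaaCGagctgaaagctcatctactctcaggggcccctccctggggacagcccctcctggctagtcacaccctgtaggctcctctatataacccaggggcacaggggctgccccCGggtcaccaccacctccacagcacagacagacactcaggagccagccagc

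These promoters differed in their CG content. Flt1 had 29 CG dinucleotides, Cxcl12 had 20 and Kdr 19, while Ckm had 7, Acta2 had 6 and Alb 3. Acta2, with a romidepsin peak over its start, was thus as poor in CG as Ckm, which had none there. Across all 21263 promoters of the table the median was 13.0, with 21.0 among those under a romidepsin peak and 3 among those without. Of all promoters with 0 to 4 CG dinucleotides, 18.3% lay under a romidepsin peak, and of those with 5 to 9, 44.4%. These classes held 12 and 10 of the 32 promoters of the 37 genes, and 1 in each was under a romidepsin peak. Of all promoters with 18 or more, 89.5% lay under a romidepsin peak and 79.1% under a CM peak. That class held 6 promoters of the 37 genes, 4 under a romidepsin peak and 2 under a CM peak. Actn2 (19) and Ryr2 (18), which encode a Z-disc protein and the calcium release channel of the heart, belonged to that class and had no peak in either list. A comparison of CG content between the 37 genes with and without peaks was void, because only 73.0% of them had a promoter sequence, below the 80% required.

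Motifs were searched on both strands of the same windows as a description. The muscle set was complete, with 12 promoters for 10 genes. The CArG box (CCWWWWWWGG, W being A or T), the 10-letter element bound by serum response factor, was searched without mismatch. It was found in 2 of these promoters, at the actin genes Acta1 and Actc1, and in 1.52% of all promoters. Neither Acta1 nor Actc1 had a peak. Near matches, such as ccctatatgg in the Acta2 promoter shown above, were not counted. The TATA box sequence (TATAAA), counted at any position in the window, was present in 7 of the 32 promoters of these genes. It was present in 12.6% of all promoters. Of the promoters shown above it was in that of Flt1, beginning 31 bases before the start. In a Postn promoter it began at -26 from the start, at Apob at -60 and at Cyp3a11 further upstream. At Acta1 it began at -7, and at Myh6 and Actc1 after the start. These counts are therefore of the sequence, not of TATA boxes at a set distance from the start. The E-box (CANNTG) was present in 26 of the 32, against 69.0% of all promoters, and the core read by ETS factors (GGAA) in all 32, against 95.7%.

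Among the stromal genes, the contractile genes had the largest share of their windows under romidepsin peaks, while the longest summed length of peaks lay at Pdgfrb (15029 bp, against 12016 bp at Acta2 and 3431 bp at Tagln). Acta2, which encodes smooth muscle actin (chromosome 19, 34240336 to 34255585), had 6 romidepsin peaks over 69.7% of its window and 1 CM peak over 2.21%. Its longest romidepsin peak (34253164 to 34257772, 4609 bp, fold 3.59, −log10 q 5.10) covered the start. The CM peak (34253731 to 34254112, 382 bp, fold 3.53, −log10 q 1.50) lay inside it, 1261 bp downstream of the start in the promoter table. Fold here is the authors' enrichment over local background within a library, so folds of the 2 lists are not on a common scale. The 2 romidepsin peaks at the other end of Acta2 were shared with the deubiquitinase gene Stambpl1. Tagln, which encodes the actin-binding protein transgelin (chromosome 9, 45929628 to 45936058), had 5 short romidepsin peaks of 525 to 790 bp over 40.7% of its window and no CM peak. Their folds of 2.31 to 2.67 were low to middling for the list, at percentiles 13.8 to 51.9, and 3 of the 5 were shared with the neighbours Pcsk7 or Sidt2.

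Fn1, the fibronectin gene (chromosome 1, 71585473 to 71653280), was the stromal gene with the strongest CM peak. That peak measured 2551 bp with a fold of 4.64 and a −log10 q of 3.31, and it lay at the upper gene end, inside a romidepsin peak of 4401 bp (71650081 to 71654481, fold 3.60, −log10 q 5.48). The other 3 romidepsin peaks of Fn1 were 293 to 394 bp long. Here the romidepsin peak was 1.73 times as long as the CM peak, against 12.1 times at Acta2.

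The growth factor receptors of mesenchymal cells had peaks with romidepsin only. Pdgfra (chromosome 5, 75151322 to 75198206) had 2, of 3161 bp (fold 3.33) and 871 bp (fold 3.91, the highest stromal fold in that list), the first beginning 502 bp downstream of the start in the promoter table. Pdgfrb (chromosome 18, 61045127 to 61085067) had 6 over 35.8% of its window, the longest of 7158 bp inside the gene (61066611 to 61073768, fold 3.31). Its peak at the lower end was shared with Gm52351. Csf1r, the macrophage receptor gene, lies 20.5 kb above Pdgfrb and had peaks in both lists, but no Csf1r peak reached into the Pdgfrb window. Lepr, the leptin receptor gene that marks bone marrow stromal cells, had 3 peaks of 344 to 385 bp over 1.11% of its window, and 2 of them lay over its annotated promoters. Cxcl12, the chemokine gene that holds blood stem cells in the marrow, had 1 peak of 1188 bp over its start (117167929 to 117169116 of chromosome 6) with a low fold of 2.30 (−log10 q 1.40). Postn, a matrix protein gene, had 1 peak of 293 bp over its first promoter, 202 bp before the start (fold 2.52), and 293 bp is the shortest length in that list. The small proteoglycan genes Dcn and Lum and the fibrillin gene Fbn1 had no peak.

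The endothelial genes ranged from peaks over most of the window at Pecam1, through low coverage at Cdh5 and Flt1, to no peak at Tek and Emcn. Pecam1, an adhesion gene of endothelium, platelets and leukocytes (chromosome 11, 106654213 to 106715281), had 15 romidepsin peaks over 62.4% of its window. The longest of them (106658919 to 106669845, 10927 bp, fold 3.16) was the longest at any of the 37 genes. Its CM peak was short and weak (106674578 to 106675024, 447 bp, fold 3.68, −log10 q 1.71) and lay inside a romidepsin peak of 3878 bp. Coverage of Pecam1 with romidepsin stood at percentile 83.1 of all protein-coding genes, and that of Acta2 at 85.8, so neither was at the extreme.

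Vwf, the gene of the clotting protein von Willebrand factor (chromosome 6, 125552948 to 125686679), had 16 romidepsin peaks over 16.7% of its window and 2 CM peaks over 1.64%. Of the romidepsin peaks, 15 were packed between positions 125563736 and 125605909, and the last lay at the upper gene end. The peak at 125572231 to 125575449 had a fold of 4.28, the highest of any member and at percentile 98 of the romidepsin list. It held a CM peak of 1333 bp (fold 4.56). The other CM peak (897 bp, fold 3.69) lay inside a romidepsin peak of 3525 bp (fold 3.85).

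The VEGF receptor genes were marked at their starts in both lists. Flt1, which encodes VEGFR1 (chromosome 5, 147561604 to 147726438), had a romidepsin peak of 4954 bp over its start (fold 3.86, −log10 q 6.16) and a CM peak of 1605 bp inside it (fold 4.06, −log10 q 2.24). The other 6 romidepsin peaks were of 318 to 950 bp. Kdr, which encodes VEGFR2 (chromosome 5, 75932827 to 75979072), had a start peak of 2475 bp with romidepsin (fold 3.61, −log10 q 5.10) and of 1095 bp in CM (fold 4.43, −log10 q 2.96). A further romidepsin peak of 1961 bp (fold 3.54) lay at its other end. Cdh5, which encodes VE-cadherin, the junction protein of endothelium, had 3 romidepsin peaks of 293 to 1615 bp over 5.11% of its window and no CM peak. The angiopoietin receptor gene Tek and the sialomucin gene Emcn had no peak.

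**Figure D2:**
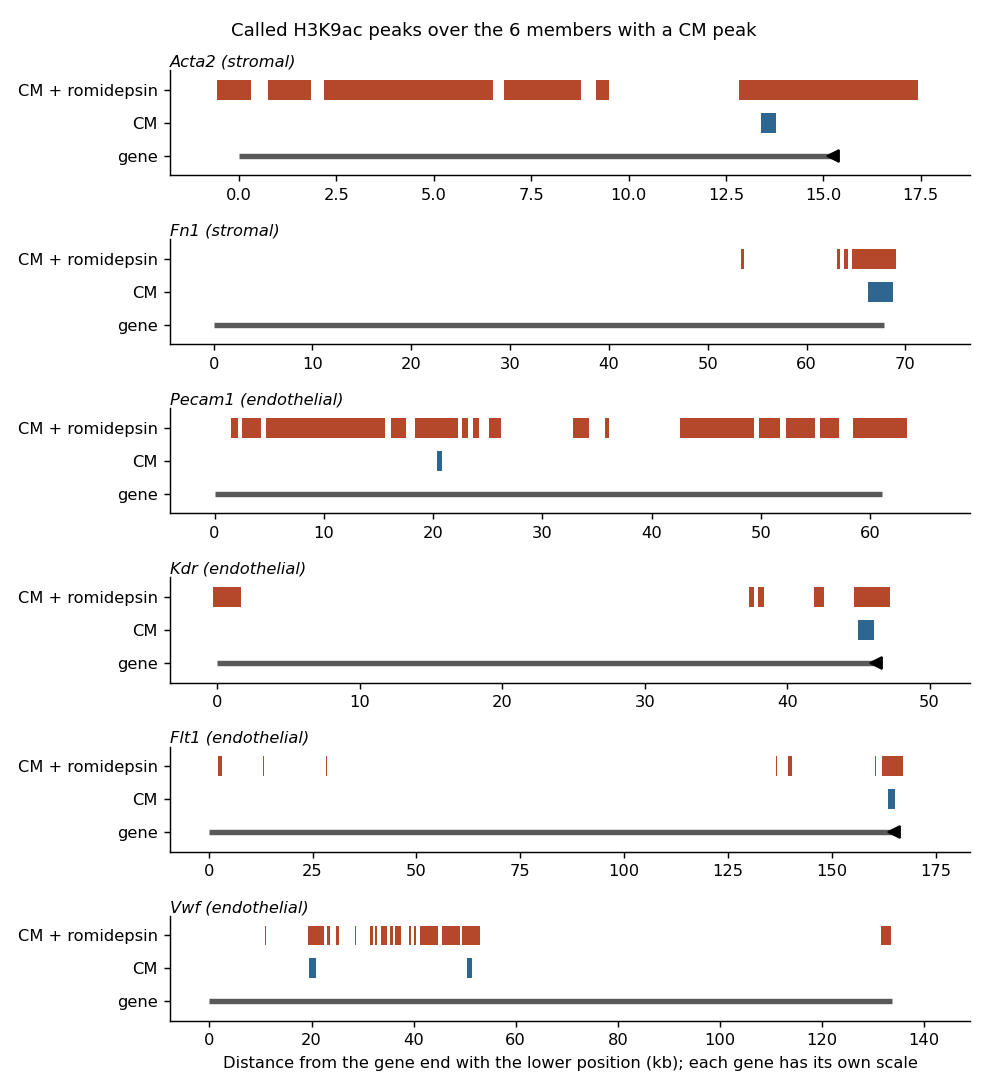
Positions of called H3K9ac peaks with romidepsin (upper row, red) and in CM (middle row, blue) over the 6 genes that had a CM peak, in kb from the gene end with the lower position. The gene is the grey line, and an arrowhead at its 5′ end gives the direction of transcription where the promoter table gave the strand. All 7 CM peaks lay inside a romidepsin peak, and the share of the whole CM list that does so is not given here.

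Only 2 liver genes had peaks, all with romidepsin. Apoa1, the main apolipoprotein gene of high-density lipoprotein (chromosome 9, 46228630 to 46230469), had 1 peak of 1397 bp (46229659 to 46231055, fold 3.59, −log10 q 5.26) at the end opposite to its start, 1029 bp from the start. It covered 36.4% of the window of this short gene. Sik3, a kinase gene 4.43 kb below Apoa1, had 64 romidepsin peaks and 2 in CM, but the Apoa1 peak lay within 1 kb of no other gene. Hnf4a, the nuclear receptor that directs hepatocyte genes (chromosome 2, 163506811 to 163572907), had 4 peaks of 301 to 916 bp inside the gene, none over either of its 2 promoters, with the strongest at 163535057 to 163535972 (fold 3.76, −log10 q 5.71). Peaks were absent at the genes of albumin (Alb), apolipoprotein B (Apob), transthyretin (Ttr), fibrinogen (Fgb), alpha-1-antitrypsin (Serpina1a), the urea cycle enzyme carbamoyl phosphate synthetase (Cps1) and the drug-oxidising Cyp3a11. Serpina1a and Cyp3a11 belong to families of near-identical copies, where short reads may not have been placed uniquely, so their lack of peaks is uncertain.

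Ckm, the creatine kinase gene of muscle, was the sole muscle gene with a peak (chromosome 7, 19411094 to 19421583). It had 3 romidepsin peaks over 39.2% of its window, of which the longest (19418757 to 19423191, 4435 bp, fold 3.32, −log10 q 4.39) covered the end opposite to the start. None lay over the promoter shown above, and the nearest began 5717 bp from the start. The neighbour Mark4 lies 3.52 kb above Ckm and had 7 romidepsin peaks and 1 in CM, and Klc3, 6.92 kb below, had 3 and 1. The genes of actin (Acta1, Actc1), myosin (Myh6, Myh7), titin (Ttn), desmin (Des), cardiac troponin T (Tnnt2), alpha-actinin (Actn2) and the ryanodine receptor (Ryr2) had no peak in either list.

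The peaks that these genes did carry were ordinary for the romidepsin list and weak for the CM list. With romidepsin, the 82 peaks were of 828 bp (median) with a fold of 2.67 (median), against 957 bp and 2.64 for the whole list. In CM, the 7 peaks were of 1095 bp with a fold of 4.06, against 1121 bp and 5.04. None of the 7 reached the CM list's median fold, the highest being 4.64 at Fn1. The endothelial genes held 46 of the romidepsin peaks, the stromal genes 28, the liver genes 5 and the muscle genes 3.

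**Figure D3:**
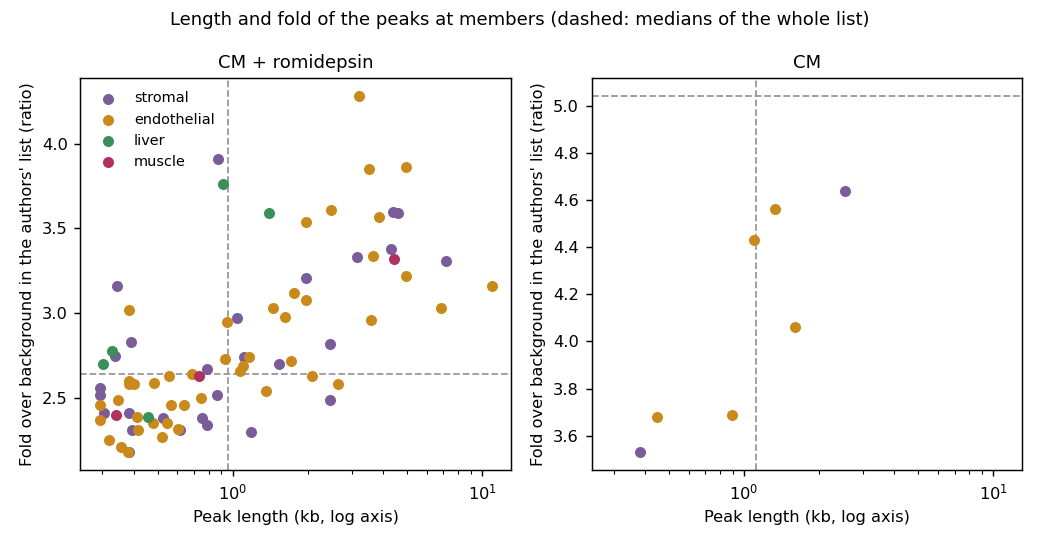
Length (kb, log axis) against the authors' fold (ratio) for each peak at the 37 genes, with romidepsin (left) and in CM (right). Points are coloured by tissue, dashed lines are the medians of the whole list, and the vertical scales differ. All 7 CM peaks lie below the CM median fold of 5.04.

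By place, 61 of the 82 romidepsin peaks lay inside a gene, 7 over a promoter, 5 at the opposite end, and 9 at an end of a gene whose start was not in the table. Of the 7 CM peaks, 4 lay inside a gene, 2 over a promoter and 1 at an end. Peaks shared with a neighbour numbered 6, at Acta2, Tagln and Pdgfrb, and all were in the romidepsin list. The share of all gene peaks that reach a neighbour is not given here.

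These genes were longer than most. Their median length was 38.7 kb, against 17.2 kb for all genes, and longer genes had more peaks on average. Of all genes of 100 kb or more, 75.1% had a romidepsin peak and 57.3% a CM peak, with a mean of 10.00 and 1.05 peaks. Of the 7 such genes among the 37, only Flt1 and Vwf had a peak, and Ryr2, Ttn, Fbn1, Tek and Cps1 had none. Of the 10 genes of 10 to 30 kb, 3 had a romidepsin peak (Acta2, Ckm and Cxcl12), against 77.8% of all genes of that length. Of the 13 genes of 30 to 100 kb, 9 had one, against 82.4%. Ryr2 (554 kb) and Ttn (279 kb) ranked 81 and 226 by length among the 6824 protein-coding genes without a romidepsin peak. Of all 227 genes of 500 kb or more, 42.7% had none, so genes of that size without a peak were common.

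**Figure D4:**
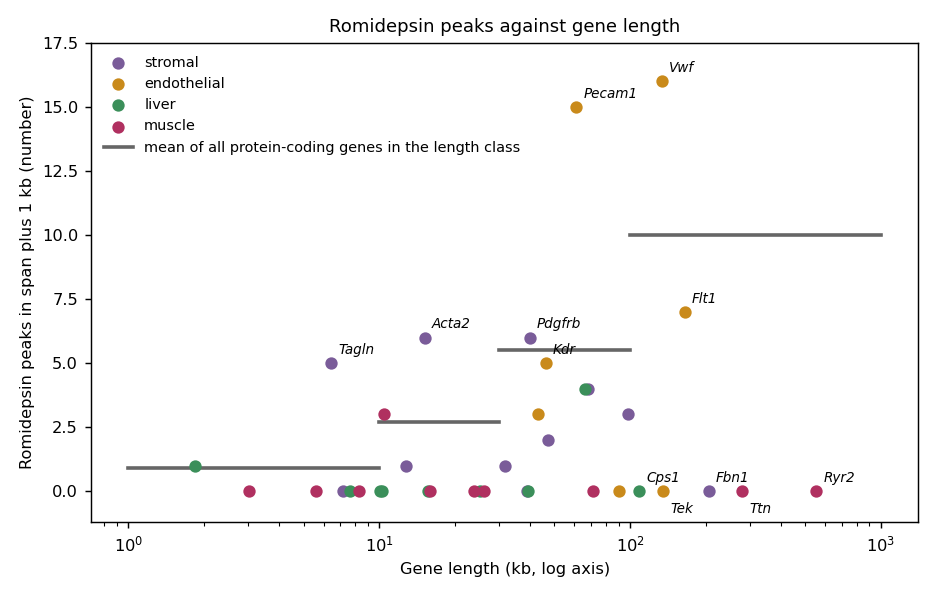
Number of romidepsin peaks in the span plus 1 kb of each gene against gene length (kb, log axis), coloured by tissue. Grey lines give the mean of all protein-coding genes in 4 length classes. Vwf (16) and Pecam1 (15) lie above their class and Ryr2, Ttn and Fbn1 at 0.

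The genes without a peak lay in stretches of very different size. With romidepsin, the distance between the nearest peaks on either side was 3227 kb around Apob, 2459 kb around Cps1, 1850 kb around Ryr2 and 1091 kb around Dcn and Lum, which share that stretch. In CM the same stretches measured 3288, 2646, 2491 and 1600 kb. At the other extreme, the stretch was 42.1 kb around Ttr, 61.7 kb around Acta1, 80.1 kb around Des and 89.1 kb around the neighbours Myh6 and Myh7 with romidepsin. In CM it was 5589 kb around Ttr, 88.3 kb around Acta1, 82.6 kb around Des and 101 kb around Myh6 and Myh7. Acta1 lies 2.34 kb below the nucleoporin gene Nup133, which had 2 romidepsin peaks and 1 CM peak. Fgb lies 5.67 kb below Plrg1, which had 1 of each. The nearest romidepsin peak was 3.72 kb from Fgb, 4.29 kb from Actn2 and 6.47 kb from Acta1. Among the flanking genes of the 21 empty genes, 22 of 42 had a romidepsin peak, and 25 of 32 did among those of the 16 others, against 68.7% of all genes. Mtr, which flanks both Actn2 and Ryr2, and Kit, which flanks both Pdgfra and Kdr, were counted for each. Dcn and Lum flank each other, as do Myh6 and Myh7, so these flanks lack a peak by definition. Stambpl1, Pcsk7, Sidt2 and Gm52351 were counted as flanks with a peak and share one with the gene they flank. The difference between the counts is thus partly built in.

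**Figure D5:**
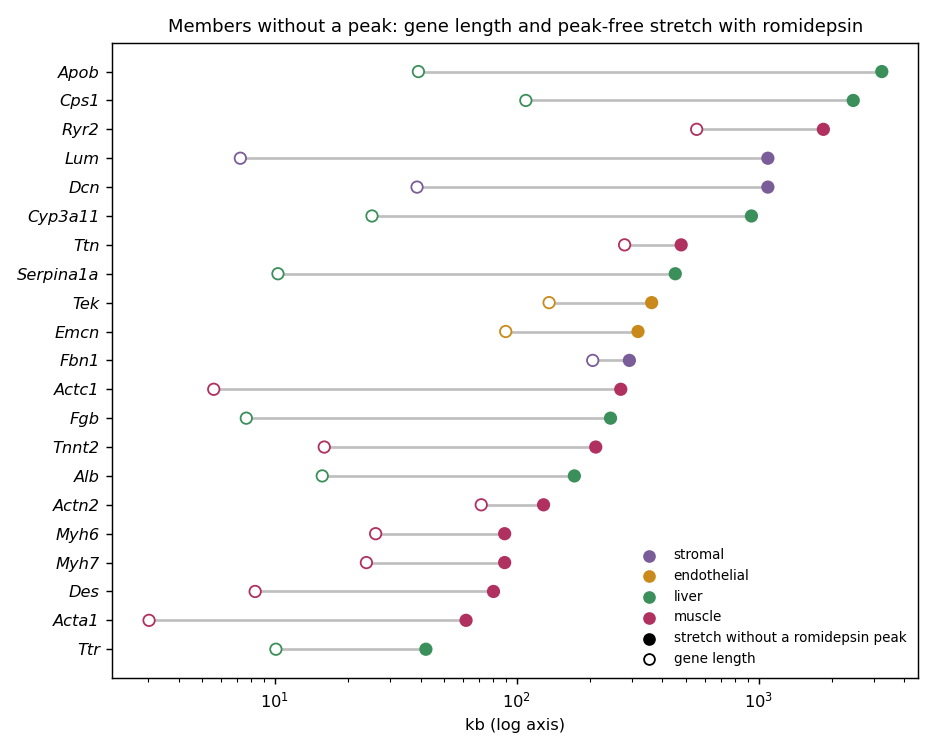
Gene length (open circles) and the stretch between the nearest romidepsin peaks on either side (filled circles), both in kb on a log axis, for the 21 genes without a peak, coloured by tissue. The stretch ran from 42.1 kb at Ttr to 3227 kb at Apob.

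A further 48 genes of the same tissues, none of them among the 37, were counted in the same way. Peaks with romidepsin were present at 9 of 12 further stromal, 8 of 12 endothelial, 2 of 12 liver and 6 of 12 muscle genes, and in CM at 2, 4, 1 and 3. The romidepsin shares of 75.0% and 66.7% for stroma and endothelium were close to the 68.7% of all genes, and those of 16.7% for liver and 50.0% for muscle were below it. In CM the shares were 16.7%, 33.3%, 8.33% and 25.0%, all below the 53.8% of all genes. Runx2, a bone transcription factor gene that is also active in some blood cells, had 53 romidepsin peaks and 4 in CM. The endothelial transcription factor gene Erg had 21 and 2, the angiogenic factor gene Egfl7 had 4 and 1, and the lymphatic and vascular factor gene Sox18 had 1 and 0. The collagen gene Col1a1 had 2 romidepsin peaks and none in CM, while Col1a2 and Col3a1 had none in either list. At Apoa2, the liver gene with the highest coverage (95.1% with romidepsin and 8.61% in CM), the peaks also reached Fcer1g and Tomm40l. At Mylpf, a muscle myosin light chain gene covered over 100% of its window with romidepsin and 10.0% in CM, they reached Septin1, Cd2bp2 and Tbc1d10b. At Tnni2, Tnni3, Myl2 and Ryr1 the neighbours Syt8, Dnaaf3, Ccdc63 and Map4k1 shared peaks. Of the 6 muscle genes with a peak, 5 shared one, Cacna1s being the exception. Sharing was also seen at 5 of the 8 endothelial genes with a peak (Eng, Esam, Nos3, Plvap and Egfl7) and at Runx2, with Supt3. How often a gene with a peak shares one among all genes is not given here, so these counts are a description only. The transcription factor genes of muscle and heart Myod1, Myog, Myf5 and Nkx2-5, and Foxa2 of liver, had no peak.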

How the data were processed

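H3K9ac was mapped in 1 library per condition, and the 2 peak lists were used as deposited. Per the submitters' processing notes, Bowtie2 (2.4.4), MACS2 (2.2.7.1) and deepTools (3.5.1) were used with mm10. Settings, and whether the input served as control, are not given in the sources used here. For each broad peak the authors' deposited list held a position, a score, a ratio (fold enrichment over background) and p- and q-values, each as −log10. Depth is unknown, and depth sets how many and how wide peaks are called. A missing peak says only that none passed the authors' threshold.

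Gene spans were read from the RefSeq annotation of the same assembly (GRCm38.p6), which gave no exons, and 108 genes placed before the first 3 Mb on an autosome or X, which lie on other scaffolds, were left out. All 37 genes matched. Promoters came from RefSeq, with strand. Exon and intron positions were not analysed here. Peaks were assigned by overlap of at least 1 bp with the span plus 1 kb, and coverage is the share of that window under peaks. The overlap code was checked on simulated peaks. Python (3.11.15), pandas (2.3.3), numpy (2.4.6) and matplotlib (3.10.9) were used.

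All 37 genes are named. Described in detail are those with a CM peak and, per tissue, the 2 with the longest romidepsin peaks, those with the highest fold and highest coverage, and those with no peak. Promoters shown are the 1 or 2 per tissue under the longest romidepsin peak, plus Alb and Ckm for contrast. Members and lists were chosen with earlier results of these data known. With 1 library per group, no test was run. Values of some genes in the further lists are not reported here. Alternatives covered window, gene ends, q, fold, overlap, equal list length and merging.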

Additional observations from a re-analysis of the deposited data

How the results depend on the processing

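Of 165 recomputed values (15 results under 11 alternatives), 121 stayed within 1.5 times the reported one. These include the liver and muscle CM counts, which were 0 as reported and under every alternative. An alternative that only removes peaks could not have changed them. All counts rest on the authors' threshold and an unknown depth. With gene end windows only, peaks at these genes numbered 21 with romidepsin and 3 in CM, covering 16.1% and 2.72% of the smaller windows. A CM peak was then present at 3 genes (8.11%, against 49.0% of all genes), 2 of them endothelial and 1 stromal, and a romidepsin peak at 14 (37.8%, against 64.1%), 1 of them a liver gene. A window of 5 kb gave 2 muscle genes with a romidepsin peak, Actn2 in addition to Ckm, and 3 liver genes, Fgb being added. The total was then 18 of the 37 genes (48.6%, against 70.9% of all genes).

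At a −log10 q of at least 2, 53 romidepsin and 4 CM peaks were left, and 1 stromal gene had a CM peak. A romidepsin peak was then present at 14 of the 37 genes (37.8%, against 66.2% of all genes). A CM peak was present at 4 (10.8%, against 51.5%). At 5, a romidepsin peak was left at 9 of the 37 genes (24.3%, against 50.1% of all genes), 3 of them stromal and 0 muscle, with 10 peaks covering 1.06%. No CM peak was left (0%, against 32.6% of all genes), so the total, stromal and endothelial CM counts and the CM coverage were 0. At 10 no peak of either list was left, so the counts in each tissue, those with romidepsin alone, and both coverages were 0, against 0.698% and 0.280% of all genes with a peak. A fold of at least 3 left 25 romidepsin peaks covering 3.11%, and 5 stromal genes with one. In all, 13 of the 37 genes then had a romidepsin peak (35.1%, against 60.1% of all genes).

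When the romidepsin list was reduced to its strongest peaks, as many as CM had, 10 genes kept a romidepsin peak. Of the 11 stromal genes 3 kept one, against 54.8% of all genes, and the 13 peaks covered 1.45%. No CM peak was present at 4 of the 10 (10.8% of the 37, against 3.94% of all genes). Only genes without a CM peak can enter that class, and they were more frequent among the 37. Merging peaks closer than 1 kb left 45 romidepsin peaks at the same 16 genes. Under every alternative that left peaks at these genes, the share of genes with a peak was below that of all genes in the same list. Why the values moved was not tested. No paired analysis was possible because each condition had 1 library.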

Other observations

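Both cardiac myosin genes of the set carry a microRNA of heart muscle. Neither microRNA locus was under a peak, which follows from the absence of peaks at both genes. Mir208a lies within Myh6 (mature 3p arm at chr14:54949072-54949093, minus strand) and Mir208b within Myh7 (chr14:54975710-54975731, minus strand). The mature sequences from RefSeq (GRCm38.p6) are shown 5′ to 3′ with the seed, bases 2 to 8, in capitals, because these microRNAs share it. They were identical at 7 of 7 seed positions and at 19 of 22 positions in all.
mmu-miR-208a-3p: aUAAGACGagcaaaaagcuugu
mmu-miR-208b-3p: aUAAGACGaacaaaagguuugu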
